A study of Mus musculus with 44 samples.

Results

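Transcripts of 9 enzymes of the urea cycle and of neighbouring amino acid pathways (Cps1, Otc, Ass1, Asl, Arg1, Arg2, Nags, Oat and Pipox) were followed in mouse organoid RNA-seq, out of 19733 genes in the count table. The list was chosen around Cps1 from earlier results of these data, so its values are a description of that gene; 8 of the 9 members passed the filter on low counts in each experiment. The table holds 20 of the series' 44 samples, all from C57BL/6 mice, in 2 experiments that were kept apart. The first comprised small intestine organoids (2 libraries) and gastric organoid lines transduced with lentivirus for CDX2, HNF4A or the neutral product GFP (3 libraries each). Both proteins are transcription factors found in intestinal epithelium, and the study asked what each does in gastric cells. The second comprised stomach antrum organoids homozygous or heterozygous for the loss of a Cdx2 enhancer that lies 3' of the gene and had been cut out of the germline by CRISPR, or wild type for it (3 libraries each). All of these antrum organoids, wild type included, overexpressed HNF4A. For the lentiviral lines one label field names gastric organoids and another small intestine organoids; the titles and the tissue tag were followed. The labels number the lines and replicates but do not say that they were separate cultures or animals, so p-values measure the spread between libraries, which may in part be technical.

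The urea cycle disposes of ammonia. In mitochondria, carbamoyl phosphate synthetase (Cps1), which works only in the presence of the N-acetylglutamate made by Nags, and ornithine transcarbamylase (Otc) build citrulline; in the cytosol Ass1 and Asl turn citrulline into arginine, and arginase 1 (Arg1) splits it into urea and ornithine. Hepatocytes hold the whole cycle, whereas enterocytes of the small intestine are known for Cps1, Otc and Nags and for releasing citrulline into the blood. Arginase 2 (Arg2) is the mitochondrial arginase, ornithine aminotransferase (Oat) links ornithine with glutamate and proline, and Pipox is a peroxisomal oxidase of pipecolic acid and sarcosine.

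RefSeq's promoter table (GRCm38.p6) matched 5 of the 9 members: Otc, Nags, Ass1, Oat and Pipox. The bases upstream of the annotated start are shown for Pipox, which had its highest levels in the lines with HNF4A, and for Nags and Otc, which had 0 reads in all GFP lines and were read in both small intestine libraries. They lie at chr11:77893873-77894122 (minus strand), chr11:102145263-102145512 (plus strand) and chrX:10252055-10252229 (plus strand). Capitals mark the only match found.
Pipox: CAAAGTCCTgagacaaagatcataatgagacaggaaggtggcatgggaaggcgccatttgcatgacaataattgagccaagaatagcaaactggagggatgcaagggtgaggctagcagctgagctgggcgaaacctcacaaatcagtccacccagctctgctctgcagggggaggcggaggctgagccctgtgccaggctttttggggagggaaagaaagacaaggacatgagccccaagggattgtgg
Nags: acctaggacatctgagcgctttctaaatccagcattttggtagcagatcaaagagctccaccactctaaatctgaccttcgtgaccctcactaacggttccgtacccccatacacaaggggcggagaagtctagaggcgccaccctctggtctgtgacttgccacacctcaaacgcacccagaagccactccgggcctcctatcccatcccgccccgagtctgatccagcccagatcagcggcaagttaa
Otc: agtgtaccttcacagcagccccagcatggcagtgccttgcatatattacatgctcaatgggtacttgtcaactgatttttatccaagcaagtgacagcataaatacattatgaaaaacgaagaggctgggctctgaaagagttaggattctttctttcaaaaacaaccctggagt

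Both strands of the 5 windows were searched for 4 short motifs, and none was found in any of them. The letters were CAAAGTCCA for HNF4. For CDX factors they were TTTATNG. A half-site of HNF1 was written as GTTAAT. The TATA box was searched by its letters TATAAA. Of 32536 distinct windows of 250 bases in the table, 0.387% held the HNF4 letters, 9.74% the CDX letters, 6.47% the HNF1 letters and 12.3% the TATA letters. A further search, added after that result, allowed 1 letter of the HNF4 motif to differ. It matched CAAAGTCCT in the Pipox window, 250 to 242 bases before the start, and 7.09% of all windows had such a match. No match says only that these letters are not in these windows.

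A library held 6180498 to 11007809 counts in the first experiment and 8173640 to 11465309 in the second, and levels are given as CPM on TMM-adjusted library sizes. Of the transgene targets, Cdx2 was highest outside small intestine in the CDX2 lines, whereas Hnf4a overlapped between CDX2 and HNF4A lines. Cdx2 was at 282 and 272 CPM in small intestine organoids, 200, 288 and 62.0 CPM in CDX2 lines, 50.7, 29.1 and 22.6 CPM in HNF4A lines and 3.95, 7.44 and 3.19 CPM in GFP lines. Hnf4a was at 717 and 885 CPM in small intestine organoids, 441, 197 and 186 CPM in CDX2 lines, 502, 399 and 289 CPM in HNF4A lines and 158, 132 and 95.7 CPM in GFP lines. CDX2 line 1 thus held more Hnf4a than HNF4A lines 2 and 3. In the enhancer experiment Cdx2 was at 0.20 to 1.36 CPM in homozygous, 5.55 to 18.4 CPM in heterozygous and 16.7 to 58.5 CPM in wild-type organoids. Gastric epithelial markers summed to 451 to 15626 CPM in the gastric lines, against 1.40 and 60.7 CPM in small intestine organoids.

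Some libraries stood apart in transcripts of other cell types. Of 10 hepatocyte markers, Alb, which encodes serum albumin, had 295 reads in CDX2 line 2, 235 and 142 reads in HNF4A lines 1 and 2 and 64 and 104 reads in GFP lines 1 and 2. The other 6 libraries of that experiment had 0 to 23 Alb reads. In HNF4A line 3 and CDX2 line 3, 7 of the 10 markers were at 0, Alb among them. The 10 markers still summed to 24.1 CPM in HNF4A line 3, and to 1.63 CPM without Ttr. Their sum was 4.42 CPM in CDX2 line 3 and 1.96 to 19.2 CPM in GFP lines. In the enhancer experiment Alb was at 37.1, 137 and 0.702 CPM in homozygous, 51.1 to 141 CPM in heterozygous and 58.1 to 113 CPM in wild-type organoids. Fibroblast markers summed to 36.2 to 1068 CPM in homozygous, 100.1 to 1265 CPM in heterozygous and 3.18 to 6.74 CPM in wild-type organoids. The 3 libraries richest in them were heterozygous 3, homozygous 3 and heterozygous 2. In bulk RNA, fewer cells of a type and less RNA per cell cannot be told apart.

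Cps1, the ammonia-fixing enzyme (chromosome 1, 67122426 to 67231267), was abundant in small intestine organoids and in lines with HNF4A. It was low in lines with CDX2 and close to the detection limit in lines with GFP. Small intestine organoids had 183 and 738 CPM. The CDX2 lines had 0, 3.62 and 0.95 CPM. HNF4A lines 1, 2 and 3 had 332, 450 and 43.6 CPM, against 0.53, 0.32 and 0 CPM in the GFP lines, where 3 counts are 0.279 to 0.473 CPM in 1 library. Every HNF4A line lay above every GFP and every CDX2 line, and the small intestine libraries overlapped with the HNF4A lines.

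The fitted log2 fold change of Cps1 was 9.80 ± 1.47 (SE) for HNF4A against GFP, with means of 275 ± 209 and 0.284 ± 0.268 CPM (SD, n = 3 each). For small intestine against GFP it was 10.54 ± 1.52, and for small intestine against CDX2 8.25 ± 1.32. For CDX2 against HNF4A it was -7.51 ± 1.26, and for CDX2 against GFP 2.29 ± 1.65. Of the 36 Cps1 reads in the CDX2 lines, 30 came from line 2, which was also the CDX2 line with Alb reads; without it the log2 difference from GFP was 0.38. HNF4A line 3 had 320 Cps1 reads with Alb at 0 and the hepatocyte markers, Ttr included, at a sum of 24.1 CPM. HNF4A lines 1 and 2 had 2860 and 3972 Cps1 reads, with 235 and 142 Alb reads. What part hepatocyte transcripts have in the Cps1 values was not tested. For small intestine against HNF4A the log2 fold change was 0.74 ± 0.99, and leaving out 1 library at a time gave -0.59 to 1.42. Since the list was built around Cps1, no p is given for it, nor for Pipox, which is not a urea cycle enzyme and joined the list for a reason that is not recorded.

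**Figure D1:**
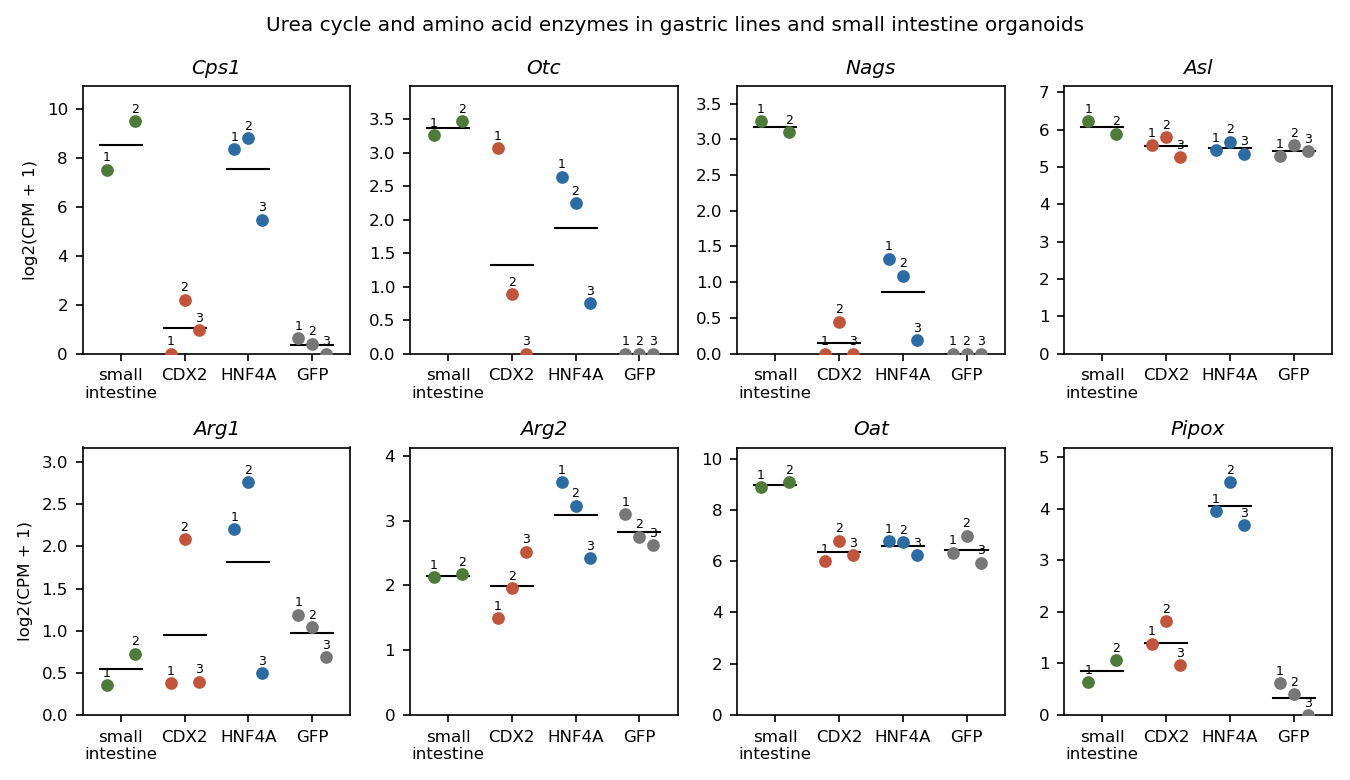
Level of 8 members in each library as log2(CPM + 1), with small intestine, CDX2, HNF4A and GFP groups from left to right; points are libraries with their line numbers and bars are group means. Cps1 and Pipox were high in all 3 HNF4A lines, and Otc and Nags had 0 reads in the 3 GFP lines.

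Otc (chromosome X, 10252230 to 10321024), which joins carbamoyl phosphate to ornithine, had 0 reads in all 3 GFP lines. It was at 8.57 and 10.1 CPM in small intestine organoids. It was at 7.34, 0.84 and 0 CPM in CDX2 lines and 5.23, 3.74 and 0.68 CPM in HNF4A lines. The 3 HNF4A lines held 45, 33 and 5 Otc reads, beside 235, 142 and 0 Alb reads. Of the 80 Otc reads of the CDX2 lines, 73 came from line 1, where Alb had 2 reads. What part hepatocyte transcripts have in the Otc values was not tested. Against 3 counts over the GFP group, Otc was at least 83.3-fold higher in small intestine organoids (adjusted p = 0.0209, n = 2 and 3 libraries). It was at least 30.1-fold higher in HNF4A lines (adjusted p = 0.425) and at least 29.2-fold higher in CDX2 lines (adjusted p = 0.236), and neither passed the test. Small intestine organoids lay above the CDX2 lines by a log2 of 1.74 ± 1.36 (adjusted p = 0.43) and above the HNF4A lines by 1.53 ± 1.36 (adjusted p = 0.475), which did not pass either. The call for small intestine against GFP was lost without GFP line 2 or small intestine library 1, with adjusted p-values of up to 0.0758 over the single libraries left out.

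Nags (chromosome 11, 102145513 to 102149528), which makes the activator of Cps1, rose in small intestine organoids against the GFP and the CDX2 lines. It was at 8.57 and 7.57 CPM in small intestine organoids. CDX2 line 2 had 0.36 CPM (3 reads) and the other CDX2 lines 0. HNF4A lines had 1.51, 1.13 and 0.14 CPM (13, 10 and 1 reads), and GFP lines 0 in all 3 libraries. Alb had 235, 142 and 0 reads in these HNF4A lines, and the part of hepatocyte transcripts in Nags was not tested. Both small intestine libraries lay above every gastric line. Nags was at least 72.8-fold higher in small intestine organoids than in GFP lines (adjusted p = 0.00738), and 66.4 times as high as in CDX2 lines by the ratio of counts (95% counting interval 22.3 to 326, adjusted p = 0.03). The call against GFP lines was kept when any 1 library was left out, and that against CDX2 lines in 1 of 5 cases, with adjusted p-values from 0.0321 to 0.178. Against HNF4A lines the log2 fold change was 3.09 ± 1.07 (adjusted p = 0.0943). HNF4A lines were at least 8.70-fold above GFP lines (adjusted p = 0.387) and CDX2 lines were at 0.126 of the level in HNF4A lines (interval 0.0243 to 0.415, adjusted p = 0.967), neither past the threshold. CDX2 against GFP, 3 reads against 0, gives no fold.

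Of the cytosolic enzymes, Ass1 (chromosome 2, 31470270 to 31520670), which condenses citrulline with aspartate, is listed at 0 in all 20 libraries, small intestine included, and whether that is a low level or a gap in the counting was not tested. Asl (chromosome 5, 130011258 to 130024381), which releases arginine, was read in every library. Asl was at 74.3 and 58.5 CPM in small intestine organoids, 37.6 to 54.4 CPM in CDX2 lines, 40.0 to 50.1 CPM in HNF4A lines and 37.9 to 46.9 CPM in GFP lines. It rose in small intestine organoids against GFP lines by a log2 of 0.65 ± 0.20 (66.4 ± 11.2 and 42.3 ± 4.50 CPM, SD, n = 2 and 3; adjusted p = 0.0385). That call was kept without 1 library in 1 of 5 cases, with adjusted p-values from 0.0464 to 0.281. CDX2 and HNF4A lines differed from GFP lines by log2 values of 0.13 ± 0.18 and 0.07 ± 0.18 (adjusted p = 0.865 and 1).

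The arginases were read at low levels. Arg1 (chromosome 10, 24915207 to 24927470), the cytosolic arginase of the liver, was at 0.28 and 0.66 CPM in small intestine organoids, 0.30, 3.26 and 0.32 CPM in CDX2 lines, 3.60, 5.78 and 0.41 CPM in HNF4A lines and 1.28, 1.06 and 0.61 CPM in GFP lines. The 5 libraries with over 50 Alb reads were also the 5 highest in Arg1, at 1.06 to 5.78 CPM, whereas the other 6 libraries lay between 0.28 and 0.66 CPM. No comparison of Arg1 passed the test: log2 fold changes were 1.71 ± 1.06 for HNF4A against GFP, 0.39 ± 1.07 for CDX2 against GFP and -1.07 ± 1.28 for small intestine against GFP (adjusted p = 1, 0.946 and 0.553). Without CDX2 line 2 the CDX2 value against GFP turned to -1.64, and small intestine against CDX2 turned to 0.57, against -1.46 ± 1.29 with all libraries. Without the 5 libraries rich in Alb reads, Arg1 no longer passed the filter on low counts. The part of the hepatocyte transcripts in these values was not tested.

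**Figure D2:**
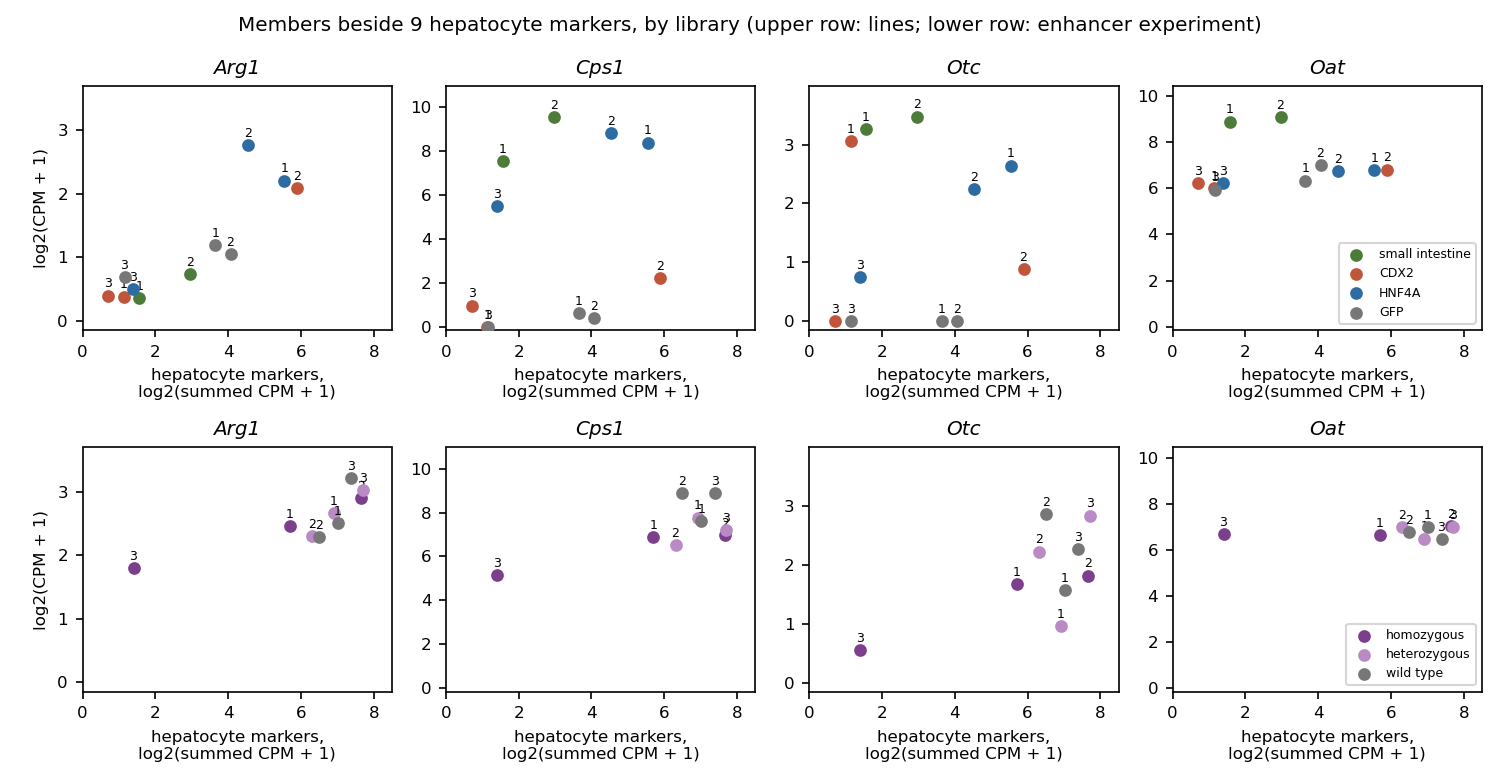
Level of Arg1, Cps1, Otc and Oat (log2(CPM + 1), vertical axes) against the summed level of 9 hepatocyte markers without Ttr (log2(summed CPM + 1), horizontal axes) in each library, numbered by replicate and coloured by group, for the lines (upper row) and the enhancer experiment (lower row). Arg1 is highest in the 5 lines with over 50 Alb reads. In HNF4A lines 1, 2 and 3 Cps1 was at 332, 450 and 43.6 CPM, with these markers at 45.5, 22.2 and 1.63 CPM. In GFP lines 1, 2 and 3 it was at 0.53, 0.32 and 0 CPM, with the markers at 11.5, 15.7 and 1.225 CPM. With Ttr the marker sums were 71.3, 42.6 and 24.1 CPM in these HNF4A lines and 13.1, 19.2 and 1.96 CPM in these GFP lines. The part of the markers in these levels was not tested.

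Arg2 (chromosome 12, 79130788 to 79156301), the mitochondrial arginase, was read in every library. It was at 3.35 and 3.51 CPM in small intestine organoids, 1.81, 2.90 and 4.73 CPM in CDX2 lines, 11.04, 8.38 and 4.36 CPM in HNF4A lines and 7.58, 5.74 and 5.15 CPM in GFP lines. The 4 highest libraries, HNF4A lines 1 and 2 and GFP lines 1 and 2, were among the 5 rich in Alb reads, while the other one, CDX2 line 2, was the second lowest. All small intestine and CDX2 libraries lay below all GFP lines, yet the log2 fold changes of -0.84 ± 0.52 and -0.98 ± 0.46 did not pass (adjusted p = 0.244 and 0.474). CDX2 lines were at -1.34 ± 0.46 against HNF4A lines (adjusted p = 0.657), with overlapping libraries.

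Oat (chromosome 7, 132557475 to 132576398), the ornithine aminotransferase, rose in small intestine organoids against each gastric line. It was at 473 and 538 CPM in small intestine organoids. It was at 63.6, 111 and 74.0 CPM in CDX2 lines, 109, 106 and 73.8 CPM in HNF4A lines and 79.3, 127 and 60.4 CPM in GFP lines. The gastric lines overlapped with each other and lay below both small intestine libraries. The log2 fold changes of small intestine organoids were 2.51 ± 0.33 against GFP (506 ± 45.8 and 88.9 ± 34.4 CPM, SD, n = 2 and 3; adjusted p = 0.00168), 2.61 ± 0.33 against CDX2 (adjusted p = 0.00354) and 2.39 ± 0.33 against HNF4A (adjusted p = 0.00378). All 3 calls were kept when any 1 library was left out. CDX2 lines differed from GFP lines by -0.10 ± 0.30 and HNF4A lines by 0.11 ± 0.30 (adjusted p = 0.95 and 1).

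Pipox (chromosome 11, 77880614 to 77893872), the peroxisomal oxidase, was high in the HNF4A lines and low in small intestine organoids. Levels were 0.56 and 1.10 CPM in small intestine organoids and 1.61, 2.53 and 0.95 CPM in CDX2 lines. They were 14.4, 21.7 and 11.8 CPM in HNF4A lines, against 0.53, 0.32 and 0 CPM in GFP lines. Each HNF4A line lay above every library of the other groups, line 3 with Alb at 0 included. The part of hepatocyte transcripts, Ttr among them, in the Pipox values was not tested. Log2 fold changes were 5.71 ± 0.78 for HNF4A against GFP (16.0 ± 5.14 and 0.284 ± 0.268 CPM, SD, n = 3 each), -3.22 ± 0.66 for CDX2 against HNF4A and -4.26 ± 0.84 for small intestine against HNF4A. For CDX2 against GFP the value was 2.50 ± 0.75 without overlap, and for small intestine against GFP 1.45 ± 0.84.

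Since the list was built around Cps1 on these same data, the counts and medians that follow describe the list and do not test it. Counted over the 8 tested members, 2 were called higher in HNF4A lines than in GFP lines, Cps1 and Pipox. Of all 12720 genes, 0.142% were called (Benjamini-Hochberg adjusted p under 0.05). The members' median fitted log2 fold change was 3.71, and 2.42 with Otc and Nags at their lower bounds, against 0.00 over all genes. None was called without GFP line 1, GFP line 2, HNF4A line 1 or HNF4A line 2, where 0.0316% to 0.0552% of all genes were called. Pipox alone was called without GFP line 3 (0.0553% of all genes). DESeq2 called 4, adding Otc and Nags, where it called 1.74% of all genes. In CDX2 against GFP edgeR called 0 of 8 (0.409% of all genes), with 2 under an unadjusted p of 0.05, as were 1430 of all 12720 genes. The fitted median was 1.34, and 0.39 with Otc at its bound and Nags, which gives no fold, left out. DESeq2 called Otc and Pipox (3.88% of all genes). In CDX2 against HNF4A edgeR called 0 (0.0236% of all genes), with a median of -1.33. Under an unadjusted p of 0.05 were 3 members and 659 of all 12720 genes. With line number as a block, Cps1 and Pipox were lower in CDX2 lines (-7.73 ± 0.80 and -3.29 ± 0.49), where 0.22% of all genes were called, and DESeq2 called the same pair (1.09%). The block raised the share of all genes called to 0.786% in HNF4A against GFP and 4.54% in CDX2 against GFP. Members called there stayed at 2 and 0. These comparisons share libraries, so their counts are not independent.

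In small intestine against GFP 5 members were called higher (Cps1, Otc, Nags, Asl and Oat), where 27.1% of all genes were called in either direction, and the median was 1.98. Without GFP line 2 the count was 3 (Cps1, Nags and Oat), where 17.3% of all genes were called. In small intestine against CDX2 3 were called higher (Cps1, Nags and Oat; 11.3% of all genes), with a median of 1.13. In small intestine against HNF4A Oat was called higher and Pipox lower (12.5% of all genes), with a median of 0.66. Without HNF4A line 2 Oat alone was called, where 2.71% of all genes were called. By limma-voom Cps1 was not called in small intestine against GFP or CDX2, and Nags was called in small intestine against HNF4A. Since the list was chosen on these data, these shares are set beside each other as a description.

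**Figure D3:**
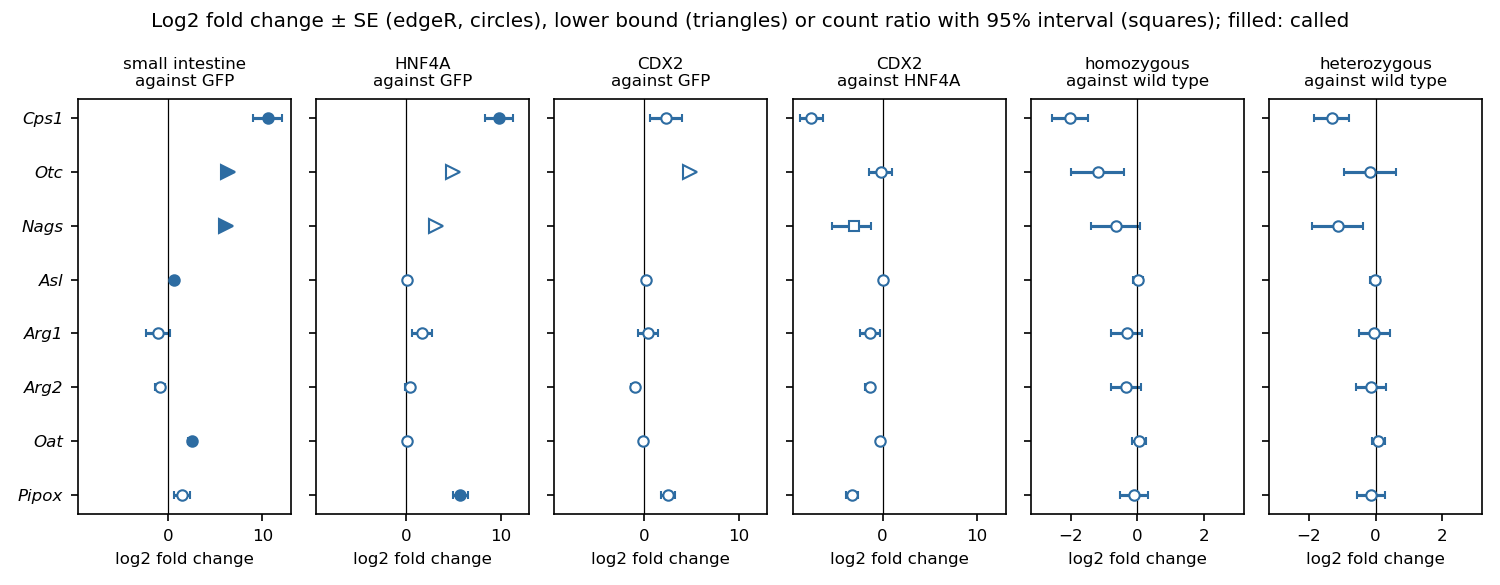
Log2 fold change of 8 members in 6 comparisons: circles are edgeR estimates with SE, triangles lower bounds against 3 counts over the GFP group, squares ratios of counts with a 95% counting interval, and filled symbols are called; Nags in CDX2 against GFP (3 reads against 0) is left out, and the last pair of panels has a narrower axis. Cps1 lies at 10.54 and 9.80 in small intestine and HNF4A against GFP and at -2.03 in homozygous against wild type.

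Among 33 further genes of arginine, ornithine, proline and glutamate metabolism, 30 were tested in the lines. In small intestine against GFP 15 were called higher and 1 lower, where 27.1% of all genes were called, with a median of 0.78. The lower one was Glul, glutamine synthetase, at 64.1 CPM in small intestine organoids and 442 CPM in GFP lines (-2.79 ± 0.44, adjusted p = 0.00319). Higher ones included Nos2, which makes nitric oxide from arginine (11.01 and 0.183 CPM, adjusted p = 0.00354). Aldh18a1, which starts proline and ornithine synthesis from glutamate, was at 250 and 96.7 CPM (adjusted p = 0.00397). Of the same 30, edgeR called 0 in HNF4A against GFP and 0 in CDX2 against GFP (0.142% and 0.409% of all genes). In each, 3 were under an unadjusted p of 0.05, as were 733 and 1430 of all 12720 genes. Agmat, a gene named for agmatine hydrolysis, had 116 reads in HNF4A lines and 3 in GFP lines, a ratio of 42.0 (95% counting interval 14.0 to 207, adjusted p = 0.138).

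Among 39 genes of lysine, glycine and other amino acid breakdown, to which Pipox is closest in role, 26 were tested in the lines. By edgeR none was called in HNF4A or CDX2 against GFP (0.142% and 0.409% of all genes). Under an unadjusted p of 0.05 were 3 and 2 of the 26, beside 733 and 1430 of all 12720 genes. Of these 26, Cth, the cystathionine gamma-lyase, had the smallest p in both comparisons. It was at 24.8 CPM in HNF4A and 19.0 CPM in CDX2 lines, against 4.96 CPM in GFP lines (adjusted p = 0.184 and 0.169). Small intestine against GFP gave 5 higher and 3 lower of the 26, near the 27.1% of all genes called. Sardh, which like Pipox oxidises sarcosine but in mitochondria, fell to 0.960 CPM in small intestine organoids, against 40.6 CPM in GFP lines (-5.38 ± 0.57, adjusted p = 0.000614). The mitochondrial serine hydroxymethyltransferase Shmt2 was at 309 and 80.0 CPM (adjusted p = 0.00106). Peroxisomal markers, the organelle of Pipox, summed to 819 to 1143 CPM in HNF4A lines and 779 to 908 CPM in GFP lines.

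Likeness to Cps1 was measured across the 11 libraries of the lines as the root mean square difference of log2 CPM after centring each gene, so that 0 is an identical pattern. Genes were not scaled, so the size of their changes weighs in the ranking. The nearest of 12719 genes were Lyz1, the Paneth cell lysozyme (2.22), Apoa1, a lipoprotein component (2.27), the cytochrome P450 Cyp3a25 (2.47), Agmat (2.49) and the esterase Aadac (2.50). Even the nearest differed from Cps1 in places: in CDX2 line 2 Lyz1 was at 1.81 and Cps1 at -1.36 around their means. Nags was 21st, Otc 48th, Pipox 101st and Oat 241st. Nearest to Pipox was Ttr, which is on the hepatocyte marker list and carries thyroid hormone and retinol (0.781), then Cyp2d9 and Cyp2d10 (0.842 and 0.867). Nearest to Otc were Cyp4f14 and Ppp1r14d (0.456 and 0.535), nearest to Nags Dnah8 and Tubal3 (0.682 and 0.701), nearest to Asl B3gat2 and Atp5b (0.0847 and 0.0909), and nearest to Oat Blm and Ccna2, genes of DNA repair and cell division (0.387 and 0.391). Reads of Lyz1, Cyp3a25 and the Cyp2d genes may be shared with close paralogs.

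In the enhancer experiment mean Cps1 was lower in homozygous than in wild-type organoids, a difference that edgeR did not call and DESeq2 did. Each homozygous library lay below every wild-type library. In how many of all genes the libraries separate in this way was not counted. Levels were 117, 124 and 34.5 CPM in homozygous, 216, 91.3 and 146 CPM in heterozygous and 192, 468 and 467 CPM in wild-type organoids. Wild-type library 1 lay within the range of the heterozygous libraries. The log2 fold change was -2.03 ± 0.54 for homozygous (92.0 ± 49.8 CPM) and -1.31 ± 0.53 for heterozygous (151 ± 62.4 CPM) against wild-type organoids (376 ± 159 CPM, SD, n = 3 each), and -0.72 ± 0.52 for homozygous against heterozygous. 

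The lowest library for Cps1, homozygous 3, was rich in fibroblast markers (1068 CPM) and poor in hepatocyte markers (Alb at 0.702 CPM). Without it the difference of homozygous from wild type was -1.64. Without the 3 fibroblast-rich libraries it was -1.63 for homozygous and -0.80 for heterozygous against wild type, the spread of the single heterozygous library left being taken from the other groups. Intestinal absorptive markers summed to 850 to 1209 CPM in homozygous and 840 to 1297 CPM in wild-type organoids, and most of that sum was Vil1 and Apob. Gene by gene, only 1 of the 9 tested had a positive log2 fold change for homozygous against wild type. The median was -1.28, the lowest -6.04 and the highest 0.32, with 0 called. Under an unadjusted p of 0.05 were 4 of them and 578 of all 12593 genes. Examples picked after their values were seen are the cadherin Cdh17, with 462 reads in homozygous and 2002 in wild-type organoids, the brush border gene Cdhr5 with 191 and 945, the glucose transporter Slc5a1 with 41 and 341, and the alkaline phosphatase Alpi with 10 and 572. For heterozygous against wild type the median of the 9 was -0.80. Both absorptive medians and both Cps1 values against wild type were negative. The medians were not tested, and edgeR called 0 of the 9 genes in either comparison. What part these 3 groups of markers have in the Cps1 values was not tested. Hnf4a itself was at 356, 374 and 336 CPM in homozygous, 422, 276 and 342 CPM in heterozygous and 320, 443 and 513 CPM in wild-type organoids, overlapping throughout.

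**Figure D4:**
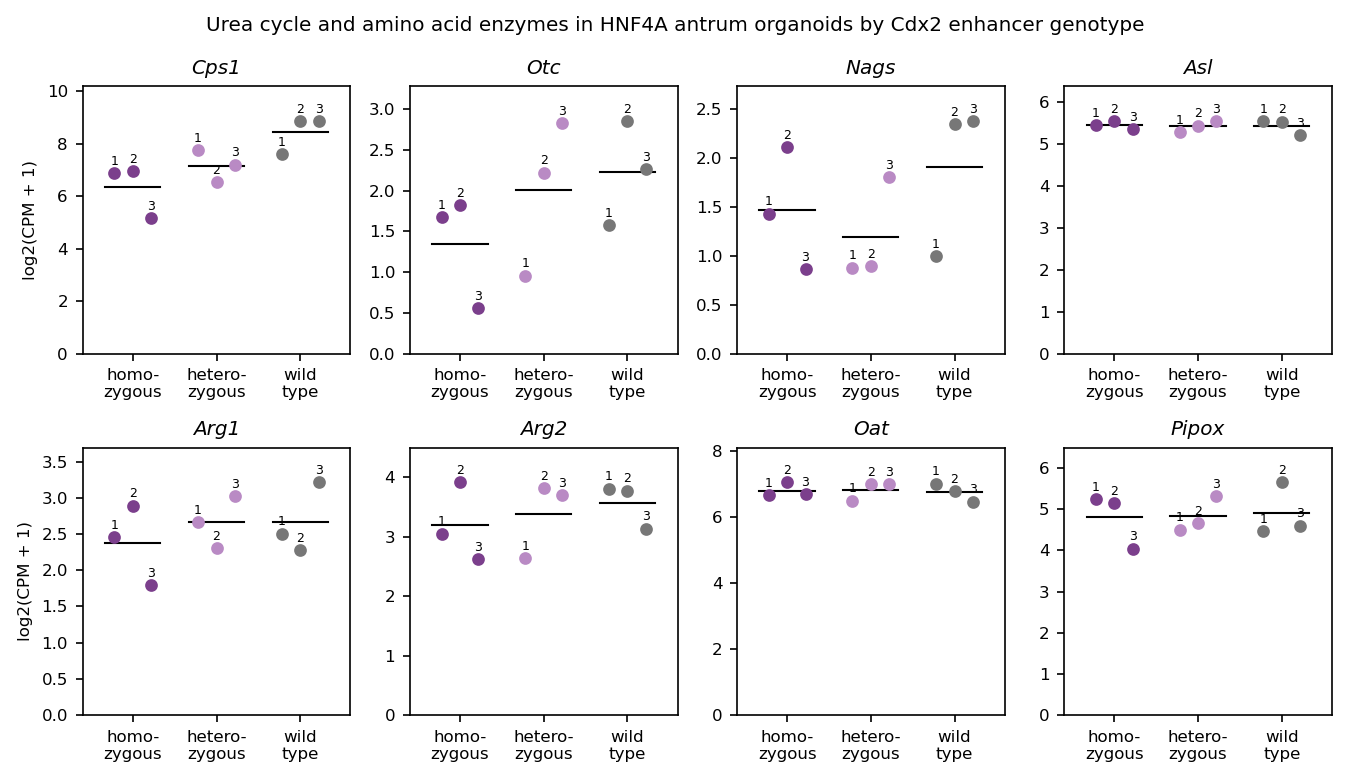
Level of 8 members in antrum organoids with HNF4A as log2(CPM + 1), for homozygous, heterozygous and wild-type organoids from left to right; points are libraries with their replicate numbers and bars are group means. The 3 homozygous libraries lie below the 3 wild-type libraries for Cps1 (34.5 to 124 against 192 to 468 CPM), which edgeR did not call, and overlap with them in the other panels.

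The partners of Cps1 in the mitochondrial steps overlapped between genotypes. Otc was at 2.19, 2.53 and 0.47 CPM in homozygous, 0.94, 3.67 and 6.13 CPM in heterozygous and 1.98, 6.26 and 3.82 CPM in wild-type organoids. Its log2 fold change was -1.19 ± 0.80 for homozygous and -0.16 ± 0.77 for heterozygous against wild type (adjusted p = 0.999 and 0.965). Nags was at 1.69, 3.31 and 0.82 CPM in homozygous, 0.84, 0.85 and 2.50 CPM in heterozygous and 0.99, 4.09 and 4.20 CPM in wild-type organoids, with log2 fold changes of -0.65 ± 0.75 in homozygous and -1.14 ± 0.76 in heterozygous organoids (adjusted p = 0.999 and 0.676). These levels rest on 4 to 54 Otc reads and 7 to 34 Nags reads a library.

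The levels of the remaining members overlapped between genotypes. Asl was at 39.9 to 45.5 CPM in homozygous, 38.1 to 45.6 CPM in heterozygous and 36.1 to 46.0 CPM in wild-type organoids. Its log2 fold change against wild type was 0.01 ± 0.15 in homozygous and -0.01 ± 0.15 in heterozygous organoids. Oat was at 98.9 to 130.5 CPM in homozygous, 88.6 to 126 CPM in heterozygous and 86.5 to 127 CPM in wild-type organoids, with log2 fold changes of 0.05 ± 0.20 in homozygous and 0.09 ± 0.20 in heterozygous organoids. Pipox was at 37.1, 34.5 and 15.5 CPM in homozygous, 21.7, 24.4 and 38.7 CPM in heterozygous and 21.2, 49.3 and 23.3 CPM in wild-type organoids, with log2 fold changes of -0.10 ± 0.42 in homozygous and -0.15 ± 0.42 in heterozygous organoids. Pipox overlapped between the genotypes, with homozygous 3 below every wild-type library; the difference between Pipox and Cps1 was not tested.

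Arg1 was at 4.48, 6.43 and 2.46 CPM in homozygous, 5.34, 3.93 and 7.15 CPM in heterozygous and 4.68, 3.85 and 8.27 CPM in wild-type organoids, and its lowest library, homozygous 3, was also the one with the fewest Alb reads. Arg2 was at 7.27, 14.0 and 5.15 CPM in homozygous, 5.24, 13.1 and 11.9 CPM in heterozygous and 12.95, 12.6 and 7.76 CPM in wild-type organoids. Log2 fold changes of Arg1 against wild type were -0.32 ± 0.47 in homozygous and -0.03 ± 0.47 in heterozygous organoids (adjusted p = 0.999 and 0.99). Those of Arg2 were -0.33 ± 0.46 in homozygous and -0.14 ± 0.46 in heterozygous organoids (adjusted p = 0.999 and 0.944).

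By edgeR 0 of the 8 members were called in homozygous or heterozygous against wild type or in homozygous against heterozygous, and 0% of 12593 genes were called in each. Under an unadjusted p of 0.05 were 1, 1 and 0 members and 578, 1125 and 33 genes. DESeq2 called 1 member, Cps1, for homozygous against wild type, where it called 1.43% of all genes, and 0 members in the other comparisons; limma-voom called 0 in each. The members' median log2 fold change was -0.33, -0.14 and -0.12 in these comparisons, against 0.00, 0.00 and -0.01 over all genes.

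Of 29 tested genes of arginine, ornithine, proline and glutamate metabolism, edgeR called 0 in either genotype, with medians of 0.02 and 0.04 in homozygous and heterozygous against wild type and 0 and 2 genes under an unadjusted p of 0.05. Among 29 of lysine, glycine and other amino acid breakdown it also called 0, with 1 gene under that p in each. That gene was Bcat1, which starts branched-chain amino acid breakdown, at 14.8 CPM in homozygous and 31.6 CPM in heterozygous organoids, against 0.227 CPM in wild-type organoids (adjusted p = 0.877 and 0.457). Its log2 fold changes were 5.98 ± 1.63 and 7.08 ± 1.65, beside medians of 6.12 and 7.01 for the 6 tested fibroblast markers in the same comparisons, and the part of these markers in it was not tested.

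The genes nearest to Cps1 over the 9 libraries were Clrn3 (0.355), Ms4a10 (0.382), the gluconeogenic enzyme Fbp1 (0.460), Btnl4 (0.477) and the hepatocyte marker Ttr (0.513). Nags was 380th, Arg1 631st, Otc 992nd and Pipox 1488th of 12592. None of the 5 nearest genes was among the 5 nearest in the lines. Around its mean log2 CPM, Cps1 spanned -2.19 to 1.57 here and -5.43 to 6.22 in the lines.

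**Figure D5:**
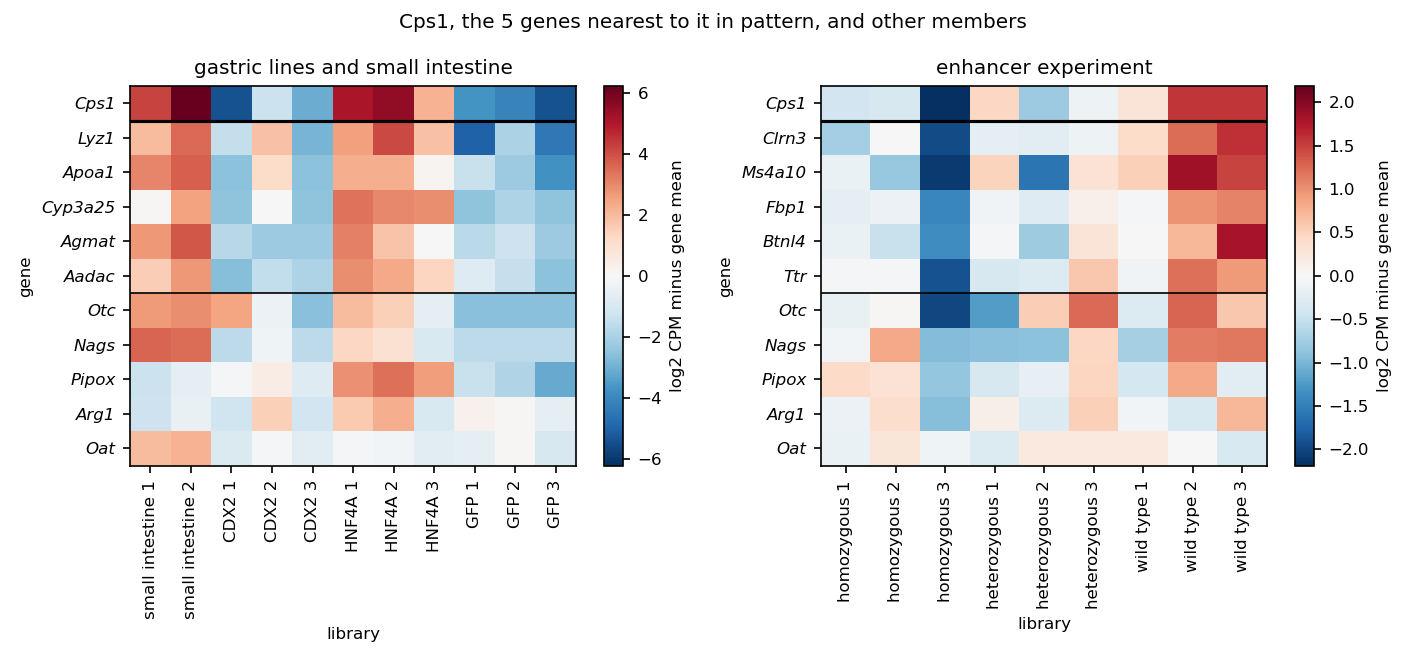
Log2 CPM minus the gene's mean (colour) of Cps1, the 5 genes nearest to it and 5 other members (rows) in each library (columns), for the lines (left) and the enhancer experiment (right), each with its own colour scale. In the lines each of the nearest genes is highest in an HNF4A or small intestine library, and in the enhancer experiment they are lowest in homozygous 3 and highest in wild type 2 or 3.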

How the data were processed

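Libraries were made from poly-A RNA of organoids recovered from Matrigel and read as 150 bp pairs, per the labels' protocols. The authors deposited raw counts per gene symbol and library; STAR, Bowtie2 and Cell Ranger and the builds mm10 and hg19 are named without a role in the submitters' processing notes. The read counter and its use of strand were not given in the sources used here; overlapping genes may share reads. Transgene reads of Cdx2 and Hnf4a cannot be told from endogenous ones. Positions are RefSeq's on GRCm38.p6. Samples of other assays were not used here.

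Members and gene lists were chosen with earlier results of these data known, so the adjusted p-values place a gene in a fit over all genes and are not independent evidence. The edgeR package (4.0.16, under R 4.3.3) fitted each experiment once by its two-sided quasi-likelihood test with robust fitting and TMM factors. Its filterByExpr, set to at least 10 counts and a total of 15, left 12720 genes in the lines and 12593 in the enhancer experiment. A gene is called where its Benjamini-Hochberg p over all of these is below 0.05. SE was taken as the size of the log2 fold change over the root of F. A group at 0 was set to 3 counts over its libraries to bound the fold, and groups with 1 to 3 counts have a ratio with its exact 95% interval. Bounds and intervals cover counting error only, since reads carry no molecular identifiers. Log2 CPM for likeness used a prior count of 2. The fit was tested on simulated data. Alternatives were DESeq2 1.42.0, limma 3.58.1 (voom), RLE factors, no filter, the replicate number as a block, only the groups compared, and libraries left out. The fit without the 5 libraries of the lines with over 50 Alb reads was added after their counts were seen.

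All 9 members are named in every comparison. Of the other lists the called genes with the smallest p, at most 4 per list and comparison, or else the 2 with the smallest p, could be named, and the 5 genes nearest to Cps1 and to each member called against GFP. As a check of pairing, libraries of the same number were correlated over genes after subtraction of their group means. Gastric lines gave 0.336 to 0.751 over 9 pairs, and homozygous with heterozygous libraries 0.188 to 0.53 over 3 pairs. Libraries of the same number thus shared part of their deviations in these groups. Pairs of unlike number were not correlated, and whether a number marks a shared origin was not tested. Small intestine libraries gave -0.088 to 0.118 and wild-type libraries -0.29 to 0.244, over 6 pairs each. The fits reported do not use the line and replicate numbers, except where a block is named.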

Additional observations from a re-analysis of the deposited data

How the results depend on the processing

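Over 914 refitted values of 72 member fold changes, 798 kept their direction and their side of the threshold, 44 lost a call, 11 gained one, 59 changed sign without a call where the reported value was within 1 SE of 0, and 2 reversed. Only called values can lose a call, and most of the 798 were not called in either fit. The reversed values were Arg1 in small intestine against CDX2 (0.57 without CDX2 line 2, -2.16 to 0.57 over single libraries left out) and Otc in homozygous against heterozygous (1.32 without the 3 fibroblast-rich libraries); the cause was not tested. Counts of members called moved as follows. DESeq2 called 2 in CDX2 against GFP, 4 in HNF4A against GFP, 2 in CDX2 against HNF4A and 1 in homozygous against wild type. Limma-voom lost the calls of Cps1 in small intestine against GFP and against CDX2 and gained Nags against HNF4A. In HNF4A against GFP it called 0 members (0.0393% of all genes), and the fit without a filter 1 (0.0926%). The fit of only those groups called 0 (0.109%) and the fit without small intestine libraries 0 (0.0651%). The fits without 1 library called 0 to 2 (0.0316% to 0.237%), where the reported fit called 0.142% of all genes. The replicate block gave 2 in CDX2 against HNF4A (0.22% of all genes). It gave 3 in small intestine against HNF4A by adding Arg1 (-3.13, adjusted p = 0.0434), where it called 24.1% of all genes, against 12.5% without the block. Libraries of the same number correlated there at only -0.058 and 0.028. The block changed the count of members called in no other comparison. Small intestine against CDX2 gave 1 with only those groups, where 0.579% of all genes were called, against 11.3% in the reported fit. Leaving out 1 library gave 3 to 5 in small intestine against GFP and 1 to 2 in small intestine against HNF4A. Leaving out the 5 libraries rich in Alb reads leaves 1 HNF4A and 1 GFP library, so calls cannot be judged from that fit. Oat was then at 3.08 in small intestine against GFP and 2.80 in small intestine against HNF4A. Nags had 0 reads in both groups of CDX2 against GFP without CDX2 line 2, and gave no value. Levels of Otc, Nags and Arg1 rest on few reads, and depth limits what they can show.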
